A study of Mus musculus with 6 samples.

Results

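The haematopoietic niche factors are secreted, adhesion and regulatory genes by which marrow stroma holds and feeds blood stem and progenitor cells. They were followed here as 10 genes chosen by name, Cxcl12, Kitl, Angpt1, Il7, Ptn, Vcam1, Jam2, Jam3, Lepr and Foxc1, and all 10 were among the 15063 genes listed in each library. RNA-seq gave their levels in cultured mesenchymal stem cells (MSCs) of bone marrow, taken from mice aged 3 weeks. There were 3 wild-type (WT) libraries and 3 in which Mapk7 was conditionally knocked out (CKO). Mapk7 encodes the MAP kinase ERK5, and the series compares the genotypes to learn how it acts on the choice between bone and fat fates. All libraries were labelled passage 5, except WT library 2, which was at passage 7. The labels name no Cre driver, floxed allele, strain or sex for either genotype, and nothing ties the libraries of a genotype to separate litters or days of culture. The p-values therefore measure only the spread between these libraries, which may be technical.

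In marrow, perivascular stromal cells that carry the leptin receptor secrete the chemokine CXCL12, which keeps blood stem cells in place through CXCR4, and stem cell factor (Kitl), which sustains them through the receptor KIT. The transcription factor FOXC1 maintains these stromal cells in their CXCL12-rich state. Angiopoietin-1 signals to TIE2, interleukin 7 supports lymphoid precursors, pleiotrophin is a heparin-binding growth factor, VCAM-1 holds integrin-bearing blood cells, and JAM-B and JAM-C (Jam2 and Jam3) bind each other across cell contacts.

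The start regions of Cxcl12, Foxc1 and Kitl are shown because these are the chemokine, its stromal regulator and the stem cell factor whose levels are followed below. RefSeq promoter windows (build GRCm38.p6) were found for 5 of the 10 genes, these 3 and Ptn and Lepr, and the 250 bases before the annotated start are printed 5′ to 3′. Capitals mark the CACCC box bound by Krüppel-like factors (CACCC), the GC box (CCGCCC) and the TATA box (TATAAA), on either strand.
Cxcl12, chr6:117168285-117168534, plus strand: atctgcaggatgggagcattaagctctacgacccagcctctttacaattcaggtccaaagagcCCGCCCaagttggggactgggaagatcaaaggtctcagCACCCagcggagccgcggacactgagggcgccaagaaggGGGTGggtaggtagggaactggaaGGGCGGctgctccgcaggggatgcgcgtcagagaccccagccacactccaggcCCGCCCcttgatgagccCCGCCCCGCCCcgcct
Foxc1, chr13:31806396-31806645, plus strand: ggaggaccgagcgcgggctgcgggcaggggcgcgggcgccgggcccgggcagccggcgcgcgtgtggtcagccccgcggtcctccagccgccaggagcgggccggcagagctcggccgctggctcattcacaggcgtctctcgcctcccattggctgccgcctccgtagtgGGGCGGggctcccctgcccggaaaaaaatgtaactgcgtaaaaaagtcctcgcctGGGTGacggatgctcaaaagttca
Kitl, chr10:100015571-100015820, plus strand: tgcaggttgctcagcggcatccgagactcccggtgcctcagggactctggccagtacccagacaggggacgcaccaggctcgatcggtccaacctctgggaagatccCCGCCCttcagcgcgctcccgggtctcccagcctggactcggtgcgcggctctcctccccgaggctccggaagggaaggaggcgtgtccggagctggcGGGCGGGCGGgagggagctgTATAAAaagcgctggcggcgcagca

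CACCC and CCGCCC can be bound by related zinc finger factors, and no CACCC match overlapped a CCGCCC match in these 3 windows; the last 2 CCGCCC matches in each of Cxcl12 and Kitl overlap each other. The Cxcl12 window held 2 CACCC and 5 CCGCCC matches, the Foxc1 window 1 and 1, and the Kitl window 0 and 3, with TATAAA beginning 25 bases before the Kitl start. Of 32851 mouse windows of the same length, 52.0% held CACCC, 32.7% held CCGCCC and 12.4% held TATAAA, so the first match is common. MEF2 factors are substrates of ERK5. The MEF2 motif, CTA and TAG with any 4 bases between them (3.2% of all windows), and the forkhead motif GTAAACA (3.17%) were not in these 3 windows, which says only that those letters are absent there. The windows were rich in G and C, with 64.4% in Cxcl12, 70.8% in Foxc1 and 69.2% in Kitl against a median of 52.4% over all windows.

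Library facts that touch these genes were as follows. Depth was 17351907 to 20689481 reads per library. Levels are in RPKM, reads scaled to gene length and library size, so they can be compared between genes. WT library 2 stood apart, with a Pearson correlation across genes of 0.795 to 0.92 with the other libraries, and the 20 cell cycle genes summed to 71.5 RPKM there against 269.6 to 599.4 in the others. By their descriptions, WT libraries 1 and 2 share an animal label, yet Ddx3y, a Y-linked gene, was at 0.0357 and 19.1 RPKM there. It was at 11.78 RPKM in WT library 3 and at 15.32, 6.455 and 16.02 RPKM in CKO. WT library 1 alone was near 0, so the genotypes were not balanced in this Y-linked transcript. WT library 3 carries different animal numbers in its description and its file header. Mapk7 was at 7.12, 6.76 and 9.07 RPKM in WT against 5.59, 3.84 and 5.45 RPKM in CKO, so its transcript was lower in each CKO library but present, and gene-level values do not separate deleted from retained exons. Its log2 difference was −0.54 (SE 0.23, limma adjusted p = 0.505). Stromal transcripts were abundant, with 12 fibroblast markers summing to 9999 to 10990 RPKM in WT against 4141 to 8940 RPKM in CKO. In bulk cultures, fewer cells of a type and less RNA per cell cannot be told apart.

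The niche factors did not behave as 1 block. Every CKO value lay below every WT value for Cxcl12, Angpt1, Foxc1 and Jam2, which is 4 of 10, and 9.65% of all 15063 listed genes did the same. Jam3 alone had every CKO value above every WT value, as 7.57% of listed genes did. Kitl was lower in 2 of 3 CKO libraries, and Vcam1, Il7, Ptn and Lepr overlapped. None of the members passed the test across genes (limma on log2(RPKM + 1), adjusted p under 0.05), which called 0.00902% of the 11085 genes tested. At an unadjusted p under 0.05 the limma fit had 5 of the 8 tested members, all lower in CKO (6.39% of tested genes were lower and 3.36% higher at that level). Limma-voom on recovered reads had 4 members, and 1000 of the 11085 genes it tested were at that level in either direction. Angpt1 and Jam2 entered the test through their WT levels, reaching 1 RPKM in 4 libraries each, so the count and the median over tested members are descriptions only. Il7 and Lepr were too low to be tested. The median log2 difference of the 8 was −1.16, or −0.87 for the 6 without Angpt1 and Jam2 (a set chosen after seeing the data), against 0.034 over all tested genes. Low medians were not particular to the niche factors: that of the fibroblast and stromal identity markers was −1.34 (11 of 12 below 0), that of the osteoblast markers −1.10 and that of the chondrocyte markers −3.73.

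**Figure D1:**
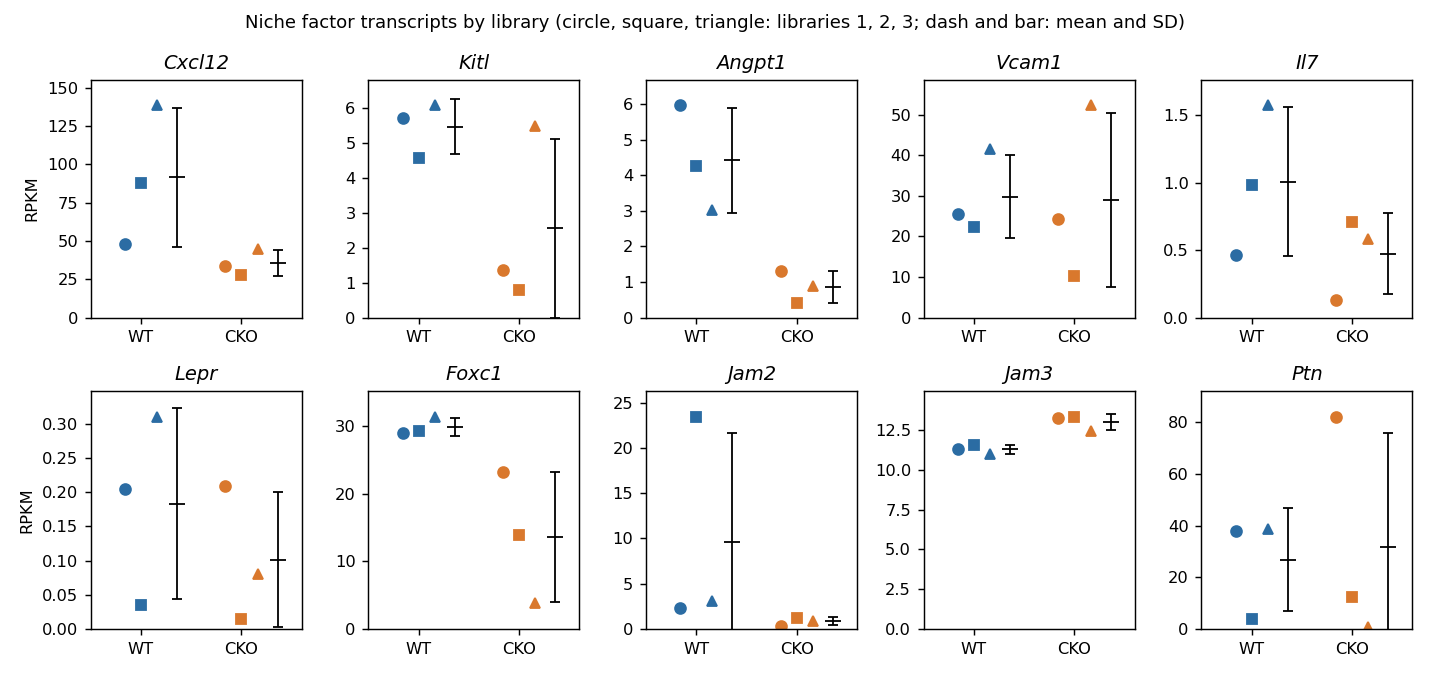
RPKM of the 10 niche factors, 1 panel per gene with its own axis from 0; blue points are WT and orange points CKO libraries, and the dash and bar are the mean and SD (n = 3), cut at 0 and at the panel's top. Cxcl12, Angpt1, Foxc1 and Jam2 have all 3 CKO points below the WT points, and Jam3 has them above.

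Cxcl12, the chemokine that retains blood stem cells, had the highest mean of the members in both genotypes and was present at lower levels in CKO. It was the highest member in every WT library but in CKO library 2 alone of the CKO libraries. It was at 48.2, 87.8 and 138 RPKM in WT libraries 1 to 3 and at 33.9, 28.1 and 44.8 RPKM in CKO libraries 1 to 3. The groups did not overlap, but WT library 1 and CKO library 3 lay close together. The means were 91.5 ± 45.3 RPKM in WT against 35.6 ± 8.50 RPKM in CKO (SD, n = 3), so the CKO mean was 38.9% of that in WT. The log2 difference was −1.24 (SE 0.40, 95% interval −2.17 to −0.30), which did not pass (limma adjusted p = 0.376). Without WT library 1 the difference was −1.63, and without WT library 3 it was −0.88. GENCODE M21 lists 3 protein-coding transcripts of Cxcl12, which a gene-level value does not separate.

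Kitl, the stem cell factor gene, divided the CKO libraries. It was at 5.72, 4.57 and 6.08 RPKM in WT against 1.37, 0.796 and 5.49 RPKM in CKO. CKO libraries 1 and 2 lay below all WT libraries, while CKO library 3 lay within the WT range. Behind these values were 547 to 610 reads per WT library and 150, 89 and 564 reads in CKO, so the Poisson 95% interval of CKO library 3, 5.05 to 5.97 RPKM, does not reach the 1.16 to 1.61 RPKM of CKO library 1. Such intervals cover counting error only. The log2 difference was −1.09 (SE 0.46, limma adjusted p = 0.511), and −1.64 without CKO library 3. The membrane-bound and soluble forms of stem cell factor come from alternative transcripts of Kitl, and gene-level RPKM does not separate the 4 protein-coding transcripts in GENCODE M21.

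On the log2(RPKM + 1) scale Angpt1, the gene of the TIE2 ligand angiopoietin-1, had the narrowest interval among the members whose CKO values lay below WT. It was at 5.97, 4.26 and 3.02 RPKM in WT against 1.31, 0.411 and 0.88 RPKM in CKO. The lowest WT library was above the highest CKO library. The means were 4.42 ± 1.48 and 0.868 ± 0.452 RPKM, a 5.09-fold ratio of WT to CKO, from 198 to 391 reads in each WT library and 30 to 94 in CKO. The log2 difference of −1.53 (SE 0.30, 95% interval −2.23 to −0.83) had the lowest p of the members but did not pass (limma adjusted p = 0.258, and 0.155 to 0.7 under the alternatives). On the log2 scale with a pseudocount of 0.1 the difference was −2.29, and with voom on recovered reads −2.44, since adding 1 RPKM compresses low genes. The SE of Angpt1 was then 0.481 and 0.536, above the 0.407 and 0.415 of Cxcl12, so the narrowest interval belongs to the first scale only. Tek, the receptor gene for angiopoietin-1, which marks endothelium and stem cells, was under 1 RPKM in every library (0.00985 to 0.822 RPKM).

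Il7 and Ptn, the other secreted factors, showed no separation of the genotypes. Il7, which lymphoid precursors need, was at 0.466, 0.983 and 1.57 RPKM in WT against 0.132, 0.706 and 0.581 RPKM in CKO. WT library 1 lay below 2 of the CKO libraries. Those values rest on 9 to 98 reads, and without WT library 1 all CKO values would lie below WT. Fitted without the filter on low values, its log2 difference was −0.43 (SE 0.26, limma adjusted p = 0.618).

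Ptn varied more between libraries of 1 genotype than between genotypes. It was at 37.7, 3.71 and 38.8 RPKM in WT against 82.2, 12.2 and 0.732 RPKM in CKO. Its highest and its lowest value were both CKO libraries, with 2756 and 23 reads. The log2 difference was −0.64 with a 95% interval of −4.08 to 2.79 (limma adjusted p = 0.896), and it was 0.78 without CKO library 3. Mdk, the midkine gene and closest relative of Ptn, was at 2.79, 4.61 and 7.19 RPKM in WT against 49.3, 8.29 and 32.2 RPKM in CKO (adjusted p = 0.334), all CKO values above WT. Mdk was singled out after its values were seen. The ratio of Ptn to Mdk was 13.5, 0.806 and 5.4 in WT and 1.67, 1.48 and 0.0227 in CKO.

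**Figure D2:**
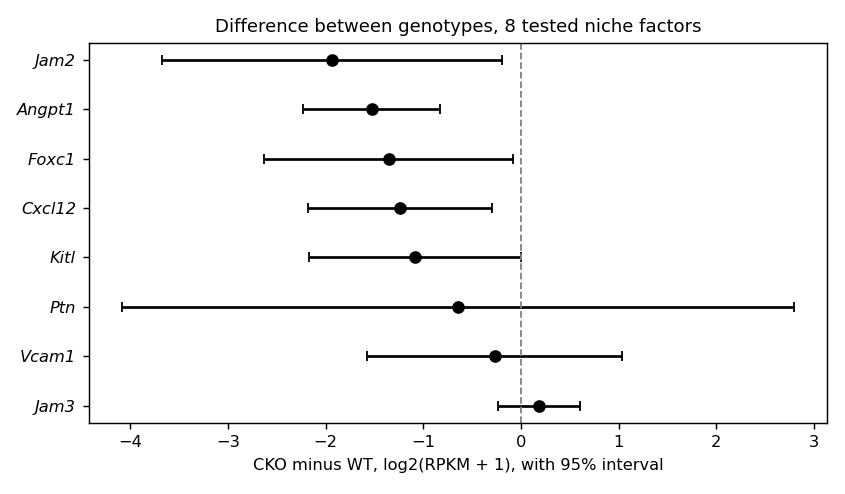
CKO minus WT difference on the log2(RPKM + 1) scale for the 8 tested members; points are limma estimates and bars their 95% intervals, not adjusted for the number of genes. Jam3, Vcam1 and Ptn have intervals that span 0 well on both sides, and that of Kitl ends at −0.003.

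Of the adhesion genes, Vcam1 did not separate the genotypes, Jam2 was lower in every CKO library and Jam3 was slightly higher. Vcam1, the integrin ligand of stromal and endothelial cells and of some macrophages, was at 25.5, 22.3 and 41.6 RPKM in WT against 24.2, 10.3 and 52.4 RPKM in CKO. CKO held both the lowest and the highest value. The log2 difference was −0.27 (95% interval −1.57 to 1.03, limma adjusted p = 0.883) and became 0.30 without CKO library 2.

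Macrophage transcripts moved with Vcam1 and, in part, with Kitl and Cxcl12 between libraries. The 20 macrophage markers, all listed and tested, summed to 1162, 876.4 and 2433 RPKM in WT against 800.4, 450.8 and 3762 RPKM in CKO, and none was at 0 throughout. The libraries with the highest sums, CKO library 3 and WT library 3, had the highest Vcam1 and 2 of the 3 highest Kitl values. CKO library 2, with the lowest sum, had the lowest of both. Kitl did not follow throughout: WT library 2 and CKO library 1, with close sums, had 4.57 and 1.37 RPKM. None of the 20 markers passed between genotypes or had an unadjusted limma p under 0.05. Lyz2, the lysozyme gene, made up most of each sum, with 1590 RPKM in WT library 3 and 2948 RPKM in CKO library 3. A setting without Lyz2 was chosen after seeing the data. The other 19 markers then summed to 842.6 RPKM in WT library 3 and 813.9 RPKM in CKO library 3. In WT library 2 and CKO library 1 they summed to 190.1 and 271.6 RPKM. The order within each of these pairs therefore rests on Lyz2. Cxcl12 was also lowest in CKO library 2 (28.1 RPKM), and in each genotype it was highest in the library with the highest sum (138 RPKM in WT library 3 and 44.8 RPKM in CKO library 3). The part of macrophages in the Vcam1, Kitl and Cxcl12 values was not tested.

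**Figure D3:**
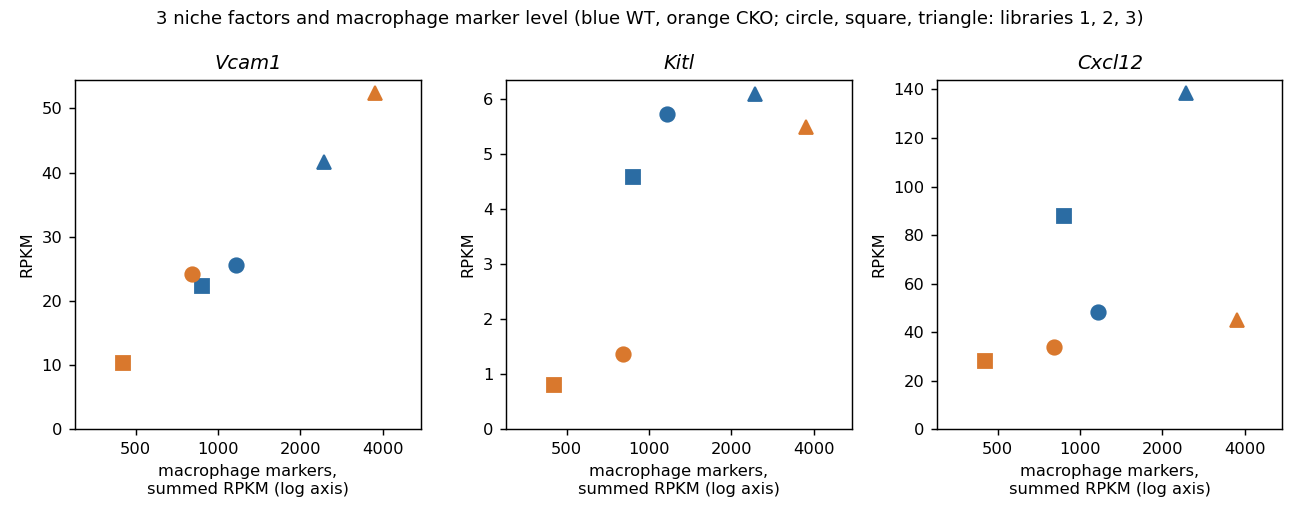
RPKM of Vcam1, Kitl and Cxcl12 (vertical axes) against the summed RPKM of 20 macrophage markers (log axis), 1 point per library, blue WT and orange CKO. All 3 genes are lowest at the lowest sum (450.8), Vcam1 is highest at the highest sum (3762), and Cxcl12 is highest at the next sum (2433).

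Jam2, the gene of JAM-B, was at 2.30, 23.5 and 3.08 RPKM in WT against 0.368, 1.25 and 0.909 RPKM in CKO. The groups did not overlap, and the passage 7 library, WT library 2, was far above the other WT libraries with 2228 reads against 183 and 245. The WT mean of 9.62 ± 12 RPKM therefore has an SD above its mean, and the CKO mean was 0.843 ± 0.445 RPKM. The log2 difference was −1.94 (SE 0.74, limma adjusted p = 0.463), and −1.02 without WT library 2.

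Jam3, the gene of the partner JAM-C, was the steadiest member. It was at 11.3, 11.6 and 11 RPKM in WT against 13.2, 13.3 and 12.4 RPKM in CKO. All CKO libraries were above WT, by a small step: the CKO mean was 1.15 times that of WT, with a log2 difference of 0.19 (95% interval −0.23 to 0.61, limma adjusted p = 0.737). The step did not hold under every scaling, since with median centring or quantile normalization the groups overlapped while the difference stayed positive (0.21 and 0.19). Jam3 exceeded Jam2 by 4.92-fold and 3.58-fold in WT libraries 1 and 3 and by 35.9-fold, 10.7-fold and 13.7-fold in CKO, while in WT library 2 Jam2 was 2.03 times Jam3. F11r, which encodes JAM-A, was at 0.409 to 1.63 RPKM in WT against 1.53 to 8.28 RPKM in CKO (adjusted p = 0.472).

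Lepr, the receptor that defines niche stroma in marrow, was barely detected. It was at 0.204, 0.0343 and 0.311 RPKM in WT against 0.21, 0.0147 and 0.0799 RPKM in CKO, from 2 to 38 reads per library. The groups overlapped, and no difference was detectable at this depth: without the filter on low values the log2 difference was −0.10 (SE 0.11, limma adjusted p = 0.761). The value in CKO library 2 was under the 0.022 RPKM that 3 reads give. The labels call the cells MSCs, and these cultures carried the stromal markers above with little of this receptor. Of the 15 tested genes of leptin receptor signalling, chosen as a list, none passed in either direction, with 10 below and 5 above 0. The lowest p were for Stat5a and Stat5b, transcription factors downstream of cytokine receptors, at 6.22 ± 0.530 and 5.84 ± 2.29 RPKM in WT against 2.90 ± 0.751 and 3.08 ± 1.03 RPKM in CKO, for the adaptor gene Irs1 (15.7 ± 3.92 and 6.43 ± 4.82 RPKM), and for Socs1, a feedback inhibitor (4.30 ± 0.945 and 2.68 ± 0.320 RPKM). Their limma adjusted p ran from 0.289 to 0.533.

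Foxc1, the transcription factor gene of CXCL12-rich stroma, was uniform in WT and spread in CKO. It was at 28.9, 29.3 and 31.4 RPKM in WT against 23.1, 13.8 and 3.90 RPKM in CKO. All CKO libraries were below WT, with CKO library 1 near the WT range and CKO library 3 far under it. The means were 29.9 ± 1.33 and 13.6 ± 9.61 RPKM, and the log2 difference was −1.36 (SE 0.54, limma adjusted p = 0.486), or −0.71 without CKO library 3. Cxcl12 did not follow Foxc1 within CKO: library 3, with the lowest Foxc1, had the highest Cxcl12 of the CKO libraries (44.8 RPKM).

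**Figure D4:**
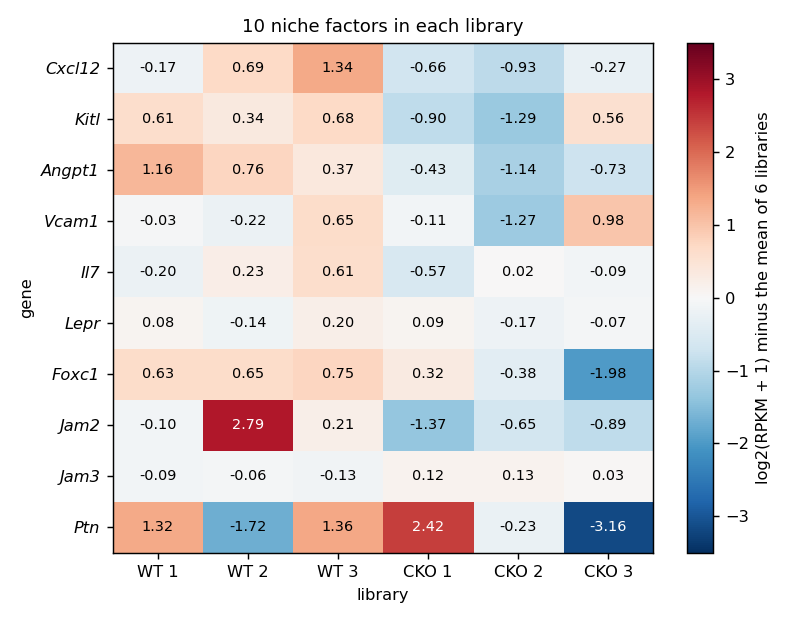
Each niche factor (rows) in each library (columns) as log2(RPKM + 1) minus that gene's mean over the 6 libraries; red is above and blue below the mean. Ptn runs from 2.42 in CKO library 1 to −3.16 in CKO library 3, Jam2 stands at 2.79 in WT library 2, and Jam3 stays within −0.13 to 0.13.

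By mean level per length, Cxcl12 came first in both genotypes and Il7 and Lepr last. In WT, Foxc1, Vcam1 and Ptn followed at 29.9 ± 1.33, 29.8 ± 10.3 and 26.8 ± 20.0 RPKM, and these neighbours did not differ beyond their spread. Jam3 came next, and Jam2, Kitl and Angpt1 lay below it, with Jam2 placed above Kitl by WT library 2 alone. In CKO, Ptn (31.7 ± 44.1 RPKM), Vcam1 (28.9 ± 21.4 RPKM), Foxc1 and Jam3 followed Cxcl12 and overlapped. Cxcl12 made up 29.0 to 50.3% of the members' summed RPKM in WT against 18.8 to 36.7% in CKO. In CKO library 1 the largest share was that of Ptn (45.7%), and in CKO library 3 that of Vcam1 (42.9%).

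The members also differed in which genes of the series they resembled over the 6 libraries. Among the genes with the highest Pearson r on log2(RPKM + 1) were Mturn for Cxcl12 (0.991), Tmem170 for Kitl (0.994), Gramd3 for Angpt1 (0.989), Ccn5 for Foxc1 (0.986), Kif1c for Jam2 (0.995), Anapc7 for Jam3 (0.979) and Cdkn2c for Ptn (0.992). Ccn5, a matricellular gene, was at 449, 404 and 639 RPKM in WT against 252, 169 and 36.2 RPKM in CKO. It was chosen by its r with Foxc1 over these libraries, so the shared low CKO library 3 is no separate finding. Tnfrsf11b, the gene of the osteoclast inhibitor osteoprotegerin, also resembled Foxc1 (0.985). Among the members, Kitl was closest to Vcam1 (0.781), Cxcl12 and Angpt1 to Kitl (0.726 and 0.684), and Foxc1 and Ptn to each other (0.704). These values describe 6 libraries that share 2 genotypes, with 11085 genes compared.

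Genes around the niche factors went both ways, and none of the lists held a gene that passed. Of 25 receptors and partners of the factors, 24 were listed and 14 tested, with 6 below and 8 above 0 (median log2 difference 0.14). Cxcr4, the CXCL12 receptor, was at 0.555 to 0.822 RPKM in WT against 0.809 to 3.56 RPKM in CKO and was too low to be tested. Ptprz1, a pleiotrophin receptor gene, was at 0.840, 0.0426 and 0.147 RPKM in WT against 1.96, 3.40 and 5.99 RPKM in CKO, without overlap (limma adjusted p = 0.258). Ptprz1 entered the test through its CKO levels alone, so its difference is a description only. Ncl, the nucleolin gene, was at 47.1 ± 24.7 and 85.7 ± 6.46 RPKM, and Itgb1, the β1 integrin gene, at 361 ± 18.8 and 519 ± 102 RPKM, also without overlap. For the list, 0 of 24 genes had all CKO values below WT and 3 had them above, against the 9.65% and 7.57% of listed genes.

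Of the 30 relatives of the factors, 27 were listed and 21 tested, with 11 below and 10 above 0. Mcam, an adhesion gene of perivascular stroma, was at 6.10, 1.20 and 3.17 RPKM in WT against 17.5, 69.2 and 22.4 RPKM in CKO (log2 difference 2.96, limma adjusted p = 0.258). Angpt4, an angiopoietin relative of Angpt1, was at 8.98 ± 3.78 RPKM in WT against 2.99 ± 0.379 RPKM in CKO, and Lifr, the leukaemia inhibitory factor receptor gene, at 2.93 ± 1.07 and 0.784 ± 0.458 RPKM. Angptl2, an angiopoietin-like gene, was at 45.0 ± 30.4 RPKM in WT against 136 ± 37.9 RPKM in CKO. The groups did not overlap for these 4 genes, and the adjusted p of the last 3 were 0.277, 0.312 and 0.33. Of 10 tested genes that handle CXCL12 or carry its signal, none passed. Epas1, a hypoxia-inducible factor gene, was at 2.79 ± 1.21 and 0.856 ± 0.627 RPKM, the protease genes Ctsk and Mmp14 at 75.2 ± 16.9 and 148 ± 65.2 RPKM in WT against 48.4 ± 7.90 and 231 ± 16.7 RPKM in CKO, and Relb, an NF-κB subunit gene, at 2.90 ± 1.11 and 1.86 ± 0.441 RPKM. Their adjusted p ran from 0.406 to 0.654.

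A wider list of 80 stromal niche and marrow stroma genes had 77 listed and 68 tested, of which 42 lay below and 26 above 0 (median −0.41), and none passed. All CKO values lay below WT for 17 of the 77 and above WT for 6, against 9.65% and 7.57% of all listed genes. Cspg4, the pericyte proteoglycan gene NG2, was at 17.2, 7.62 and 11.5 RPKM in WT against 1.23, 3.17 and 0.378 RPKM in CKO (limma adjusted p = 0.253). Bmp4 was at 45.6 ± 2.84 and 8.94 ± 8.13 RPKM. Agt and Kng1, genes of vasoactive peptide precursors, were at 2.33 ± 0.728 and 1.85 ± 0.115 RPKM in WT against 0.300 ± 0.473 and 0.319 ± 0.428 RPKM in CKO, and both were listed at 0 in CKO library 2. Both entered the test through their WT levels alone. In the list of the ERK5 pathway, where 14 were tested and none passed, the lowest p were for Klf2 (48.3 ± 21.5 and 2.37 ± 0.942 RPKM), Klf4 (12.6 ± 0.997 and 4.72 ± 2.41 RPKM), Mapk7 and Fosl1 (11.5 ± 9.61 and 22.5 ± 3.53 RPKM), with adjusted p of 0.0765 to 0.594.

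**Figure D5:**
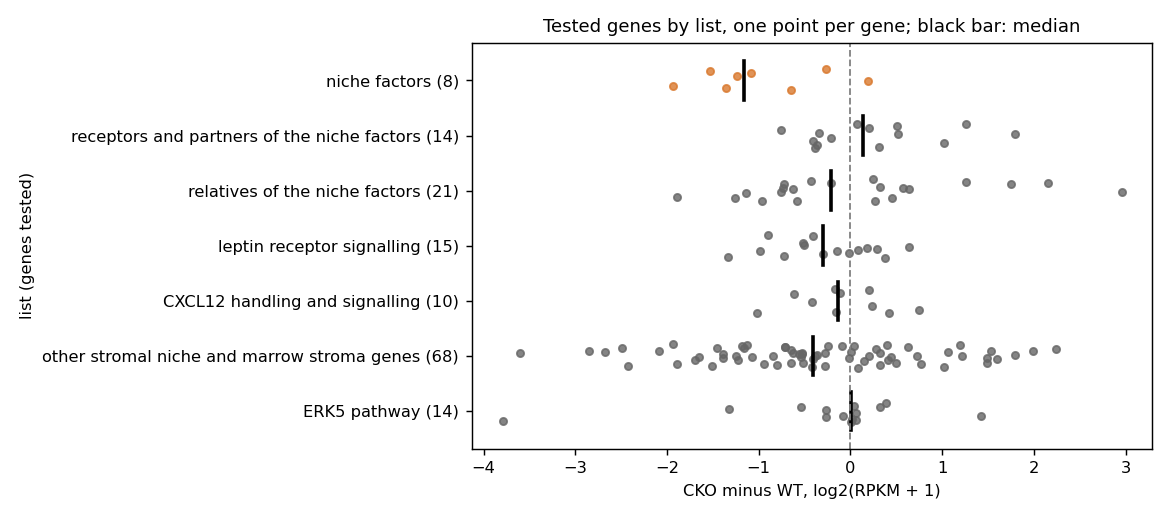
CKO minus WT difference on the log2(RPKM + 1) scale, 1 point per tested gene, for the niche factors (orange) and 6 related lists (grey), with the number tested in brackets and a black bar at the median. The median of the niche factors is −1.16, that of the wider stromal list −0.41 and that of the receptors and partners 0.14; some genes stand in more than 1 list.

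Other cell types that could carry these genes were measured by marker lists. Of 12 endothelial markers, 11 were listed and 9 stayed under 1 RPKM in every library, with Pecam1 at 0.0155 to 0.301 RPKM and Cdh5 listed at 0 in WT library 2 and CKO library 2. The summed endothelial level was 4.05 to 9.09 RPKM in WT against 3.38 to 7.51 RPKM in CKO. Only 2 endothelial markers were tested, with 1 below and 1 above 0, and neither passed. Erg, the lower one, was at 2.86, 5.42 and 1.5 RPKM in WT against 0.478, 0.113 and 0.0772 RPKM in CKO, so it entered the test through WT alone. Egfl7 went the other way, at 1.86 ± 0.896 RPKM in WT against 3.07 ± 0.729 RPKM in CKO, with overlapping groups. Of 10 lymphoid markers 3 were listed, summing to at most 0.501 RPKM. Of 14 haematopoietic progenitor and mast cell markers 7 were listed, summing to 21.1 to 98.7 RPKM in WT against 12.7 to 64.2 RPKM in CKO, with Cd34, which some stromal cells also express, at 3.91 to 83.9 RPKM.

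Markers of cartilage, bone and fat cells lay mostly below 0 in the CKO minus WT difference, and none of them passed. Of 10 chondrocyte markers, all listed and 7 tested, 6 had an unadjusted limma p under 0.05, all lower in CKO. Every CKO value lay below WT for 8 of the 10. Over all genes, 6.39% of those tested were lower at that p. Every CKO value lay below WT for 9.65% of all listed genes. The chondrocyte markers summed to 757.4, 4424 and 1206 RPKM in WT against 147.6, 99.15 and 3.753 RPKM in CKO. WT library 2, the library with the high Jam2, had the highest sum, mostly from Cnmd and Comp (1895 and 1707 RPKM there). CKO library 3, with the lowest Foxc1 and Ptn, had the lowest sum. Ptn did not follow the sums otherwise, at 3.71 RPKM in WT library 2 and highest in CKO library 1 (82.2 RPKM). Of 9 listed osteoblast markers 6 were tested, all below 0, and 4 of the 9 had every CKO value below WT. Of 8 listed adipocyte markers 5 were tested, with 4 below 0 (median −0.86), and 4 of the 8 had every CKO value below WT. Fabp4 lay above 0, at 7.70 ± 8.28 RPKM in WT against 16.5 ± 13.6 RPKM in CKO. Ibsp of the osteoblast markers and Plin4 of the adipocyte markers were under 1 RPKM in every CKO library and entered the test through WT alone. The counts and medians over tested markers are therefore descriptions only. The counts over listed markers include genes too low to be tested, such as Col9a1, Phex and Cfd. The part of any of these cell types in the niche factor values was not tested.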

How the data were processed

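The authors deposited read counts scaled to gene length and library size (RPKM), 1 value per gene and library, under file headers that say only expression. That unit was inferred: assuming a whole total for each library and a whole length for each gene, 15062 of 15063 genes returned whole reads (99.99%, within 0.01 read or a relative 1e-07), and 0 of 414 shuffled rows did. Per the submitters' processing notes, mm9 is the build named. The aligner, counter, annotation and strand setting were not given in the sources used here. GENCODE M21 has antisense genes at Angpt1, Vcam1, Il7 and Jam3, whose reads may be shared. Promoter coordinates belong to RefSeq GRCm38.p6, not to the files.

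Differences were fitted on log2(RPKM + 1), which understates changes of low genes, in the 11085 genes with at least 1 RPKM in at least 3 of 6 libraries, with limma 3.58.1 in R 4.3.3 (genotype only, trend and robust moderation, two-sided, Benjamini-Hochberg, threshold 0.05). An exact permutation test of 3 libraries against 3 cannot go below p = 0.1. The fit and the read recovery were tested on simulated data. The members and lists were chosen with earlier results of these data known. Named are all members, Mapk7, up to 4 genes of lowest p per list that holds no cell markers, extremes of marker lists, and the genes most like a member. Other genes were named after their values were seen, and some results are not reported here. Alternatives covered scaling, filter, pseudocount, moderation, voom on recovered reads, leaving out each library, averaging WT libraries 1 and 2, and the replicate number as a block.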

Additional observations from a re-analysis of the deposited data

How the results depend on the processing

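No niche factor passed under any of the alternatives run, and the sign of each tested member was kept except for Vcam1 without CKO library 2 (0.30) and Ptn without CKO library 3 (0.78). With 1 library left out, Vcam1 ran from −0.82 to 0.30 and Ptn from −2.02 to 0.78. The cause was not tested. The number of members without overlap was 5, and 4 with median centring or quantile normalization. It was 3 with the filter at RPKM 5, which removes Angpt1 and Jam2. The share of all genes without overlap was not computed for these scalings or this filter, so those counts have no background beside them. With 1 library left out the number of members without overlap was 5 to 6. In those settings 12.5 to 16.9% of all listed genes had all CKO values lower and 8.72 to 17.4% had them higher. With all 6 libraries the shares were 9.65% and 7.57%, so the counts are not on 1 scale. Kitl joined Cxcl12, Angpt1, Foxc1 and Jam2 without WT library 2 or CKO library 3, when 13.3% and 15.2% of listed genes had all CKO values lower, and Il7 joined without WT library 1 (16.9%). Over all genes, the count past the threshold was 1; it was 2 with median centring, 2 with quantile normalization, 4 with the filter at RPKM 5, 50 with WT libraries 1 and 2 averaged, and 0 without a filter, with a pseudocount of 0.1 or with voom, where limma had 1399, 1059 and 1000 genes at an unadjusted p under 0.05. With 1 library left out it was 0 to 24, highest without WT library 1 (24) and CKO library 1 (17), and 0 when WT library 2, WT library 3 or CKO library 3 was left out. With the replicate number as a block it was 0 (1123 at an unadjusted p under 0.05), and 0 members passed. The correlations of same-numbered libraries' deviations were 0.198, 0.0145 and −0.0192, so the numbers were not taken as pairs. Depth limits Il7 and Lepr.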
